A study of Mus musculus with 23 samples.

Results

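Foot-shock in wild-type brain was examined by setting 5 WT shock libraries against 6 WT control libraries, 11 of the 23 libraries of the study, each assigned to its group by its label. All came from brain of male C57BL/6J mice of the wild-type Grin2b genotype. The labels set the groups apart by whether the animal received a foot-shock. This electrical stimulus to the paws serves as the aversive event in fear conditioning. The other 12 libraries came from mice heterozygous for the C456Y allele of Grin2b (HT), 6 HT control and 6 HT shock, and enter here through the shared estimate of spread and the test of the difference between genotypes. The labels give postnatal day 17 and the series text adult mice, so the age is unresolved. Neither the brain region, nor the shock protocol, nor the interval between shock and tissue collection is given in the sources used here. Whether each library is 1 animal is not stated either. The p-values therefore describe spread among libraries, part of which may be technical.

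A strong stimulus drives neurons to transcribe immediate early genes, a first wave of transcription factors (Fos, Egr1, Npas4) and synaptic effectors (Arc), within minutes, and their transcripts decay within hours. Stress also releases glucocorticoids from the adrenal gland, which act through a nuclear receptor in neurons, glia and vessels to induce genes such as Fkbp5, Sgk1 and Tsc22d3. Both gene groups are therefore the usual readouts of an aversive experience in brain RNA.

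Values were normalized counts with decimals, which give no sequencing depth. Each WT library summed to between 31.77 M and 32.57 M of them. Defining transcripts of neurons (Snap25, 76497 to 84696 over the 11 libraries), astrocytes (Slc1a2, 51317 to 60222) and oligodendrocytes (Mbp, 94197 to 128427) were present in every WT library. So were those of cerebellum (Gabra6, 2480 to 3288), striatum (Drd2, 815 to 1074), hypothalamus (Hcrt, 88.1 to 170) and midbrain (Slc6a3, 200 to 632). The liver, pancreas and heart genes Alb, Ins2 and Myh6 were not listed in the table. The median correlation of log2 values was 0.9867 within WT control, 0.9882 within WT shock and 0.9875 between them. A pair of WT libraries stood apart from the rest on the first principal component (14.4% of the variance), WT control replicate 6 at 28.6 and WT shock replicate 3 at 28.7, with the other 9 between -18.6 and 1.8. The count of calls and several list summaries below are also given without both, an omission chosen after seeing the data.

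No gene passed the test between WT shock and WT control. Of 17118 genes with a mean of at least 10, limma called 0 (0%) at an adjusted p under 0.05, and 637 genes (3.72%) had an unadjusted p under 0.05, of which 350 (2.04%) were higher and 287 (1.68%) lower after shock. Without WT control replicate 6 and WT shock replicate 3 the call count was also 0, with 403 higher and 317 lower at an unadjusted p under 0.05. A positive difference was found for 49.8% of genes. The groups did not overlap for 64 genes (0.374%), 28 higher (0.164%) and 36 lower (0.21%). Leaving out those 2 libraries makes separation easier, and 114 genes were then higher and 135 lower without overlap.

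The libraries nevertheless bounded most changes narrowly. The 95% confidence interval of the shock difference lay inside 1.5-fold in either direction for 14341 genes (83.8%) and inside 2-fold for 16423 (95.9%). The share inside 1.5-fold was 25.9% of genes with a mean of 10 to 50, 83.6% of those from 50 to 200, 98.5% from 200 to 1000 and 99.7% at 1000 or more. A change of 1.5-fold was thus not excluded for most genes of low level, and was outside the interval of nearly every gene of high level. Without the 2 libraries that stood apart the number inside 1.5-fold was 13913. Spread was slightly larger in the controls, with a median SD over genes of 0.128 on the log2 scale in WT control and 0.117 in WT shock. The SD was larger in WT control for 57.3% of genes.

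The 10 genes of smallest p in each direction, predicted and clone names aside, are described next as the edge of the distribution, since none was called and each had an adjusted p of 0.998. Fam129b, which encodes a Niban family protein, stood at 1107, 1103, 1103, 1190 and 1082 in the 5 WT shock libraries. WT control ranged from 904 through a median of 976 to 1068. All 5 shock libraries were above all 6 controls, and the log2 difference was 0.20 ± 0.05 (SE), an interval of 1.07 to 1.23-fold. Ndrg2 (chr14:51905271-51914158, minus strand, GRCm38), an astrocyte-enriched NDRG family gene, stood at 22823, 23385, 24257, 25565 and 24416 after shock, above the controls at 21707 to 22741 with a median of 22383. That difference was only 0.11 ± 0.03, or 1.04 to 1.12-fold.

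Pcdhb7 and Myo15 were higher by more, from a lower level. Pcdhb7, a clustered protocadherin that gives neurons adhesive identity, stood at 246, 239, 236, 250 and 264 after shock, and at 185 to 207 (median 190) in WT control, a difference of 0.35 ± 0.09. Myo15, an unconventional myosin known from the hair cells of the inner ear, stood at 95.5, 61, 68.5, 106 and 64.5 against 37.4 to 59.3 (median 45.9), a difference of 0.70 ± 0.18. Neither gene overlapped between groups. Orai3, a subunit of store-operated calcium channels, also did not overlap, at 520, 468, 518, 510 and 486 against 417 to 461 (median 453). The remaining leading genes on the higher side were Rps6, Obsl1 (a cytoskeletal adaptor), Ppil1 (a spliceosome component), Rad52 (DNA repair) and Ramp2 (a receptor partner for adrenomedullin in vessels). Their differences lay between 0.18 ± 0.05 for Rps6 and 0.27 ± 0.09 for Ramp2.

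On the lower side the smallest p belonged to Gcc1 (chr6:28416091-28428390, minus strand), a golgin that tethers vesicles at the Golgi. It stood at 611, 658, 703, 635 and 598 after shock and at 723 to 829 (median 738) in WT control, with no overlap and a difference of -0.25 ± 0.06 (0.773 to 0.916-fold). Pcnt, the centrosome scaffold pericentrin, stood at 1358, 1189, 1314, 1175 and 1383 against 1383 to 1746 (median 1468). The highest shock and the lowest control library round to the same value, and the groups did not overlap. Prr3, a proline-rich protein gene, stood at 782, 720, 733, 764 and 790, below every control (806 to 908, median 823).

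Nptn, which encodes the synaptic adhesion protein neuroplastin, stood at 16314, 15568, 14969, 14860 and 14432 against 15174 to 17608 (median 16752), and the groups overlapped. Its difference of -0.13 ± 0.04 spans 0.861 to 0.966-fold. Impa2, an inositol monophosphatase, showed another shape. The 5 shock libraries lay close together at 208, 213, 199, 181 and 199, while WT control split into values of 391, 427 and 339 and values of 217, 221 and 204. Its difference of -0.52 ± 0.16 therefore came with a control SD of 98.1 and a shock SD of 12.1. The other leading lower genes were Ndufab1 (a mitochondrial acyl carrier protein), Prpf4 (a spliceosome component), Zfp568 (a KRAB zinc finger gene), Rspo1 (a secreted enhancer of Wnt signalling) and Cacnb2 (a calcium channel subunit). They lay between -0.43 ± 0.13 for Zfp568 and -0.18 ± 0.06 for Cacnb2.

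**Figure D1:**
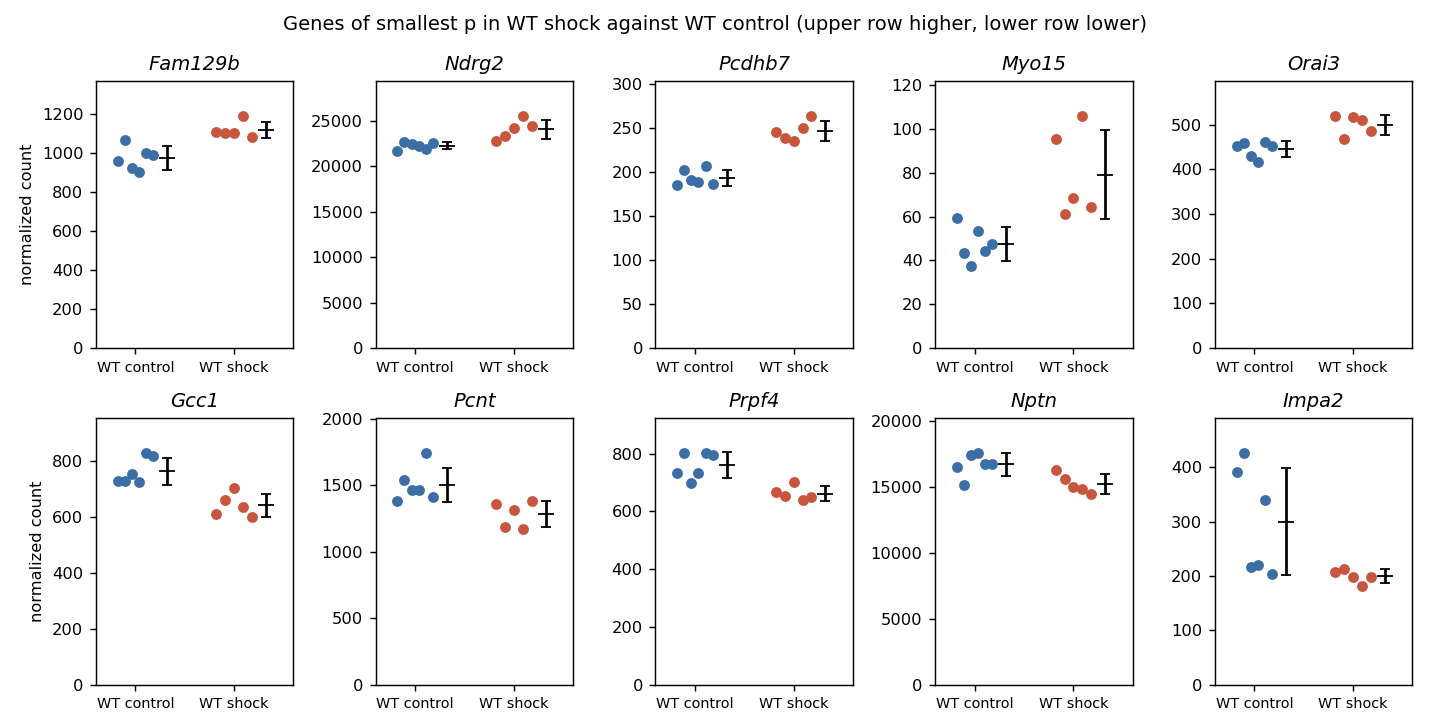
Normalized counts of 10 leading genes in the 6 WT control and 5 WT shock libraries, 1 point per library, with the mean and SD beside each group. Fam129b, Ndrg2, Pcdhb7, Myo15 and Orai3 (higher) and Gcc1 and Pcnt (lower) do not overlap between groups. The 6 Impa2 controls fall between 204 and 427.

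The same genes were read in the other genotype through the genotype by shock interaction, the test of whether the shock difference in HT differs from that in WT. It called 0 genes (0%) by limma, with 1101 (6.43%) at an unadjusted p under 0.05 and a smallest adjusted p of 0.552. In HT the shock difference was -0.05 ± 0.05 for Fam129b, -0.02 ± 0.03 for Ndrg2, -0.17 ± 0.09 for Pcdhb7, -0.03 ± 0.06 for Gcc1 and 0.17 ± 0.06 for Pcnt. Of the 20 leading genes 6 had the same sign in both genotypes and 15 had an unadjusted interaction p under 0.05. They were picked for their WT difference, which enters the interaction, so that count is not independent of the choice. HT shock against HT control called 0 genes (0%) by limma, with 2352 (13.7%) at an unadjusted p under 0.05. Without HT control replicate 6 the number of genes called was 2065, and with library weights 2792. Across all 17118 genes the shock differences of the 2 genotypes, which share no libraries, had a Spearman correlation of 0.08 and shared a sign for 55.2%. Genes are not independent replicates, and this is a description.

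Rps6, a component of the small ribosomal subunit whose phosphorylation is a common marker of neuronal activity, lies at chr4:86854660-86857412 on the minus strand and needs its copy beside it. Its coding sequence of 750 bases and the 750 bases of Rps6-ps4, a copy listed as a separate gene, were identical at 100% of positions in the GENCODE transcripts. The first 120 coding bases are shown because they could come from either gene.
Rps6 and Rps6-ps4: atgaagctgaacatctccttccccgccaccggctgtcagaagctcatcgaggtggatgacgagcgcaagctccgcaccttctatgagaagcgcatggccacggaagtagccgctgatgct
Rps6 was listed at 5355, 6141, 6315, 5860 and 6211 in WT shock and at 4983 to 5529 (median 5352) in WT control. Rps6-ps4 went the other way, at 816, 238, 0, 514 and 251 after shock against 562 to 1556 in the controls. The sum of both genes averaged 6340 ± 108 (SD, n = 5) after shock. In the controls it averaged 6363 ± 349 (SD, n = 6). Its log2 difference was 0.00, with an exact two-sided permutation p of 0.97 over the 462 splits of 11 libraries. For Rps6 alone the difference was 0.18 and the exact permutation p was 0.0108, a value that follows from its choice as a leading gene. Summing with the copy was chosen after seeing the data.

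**Figure D2:**
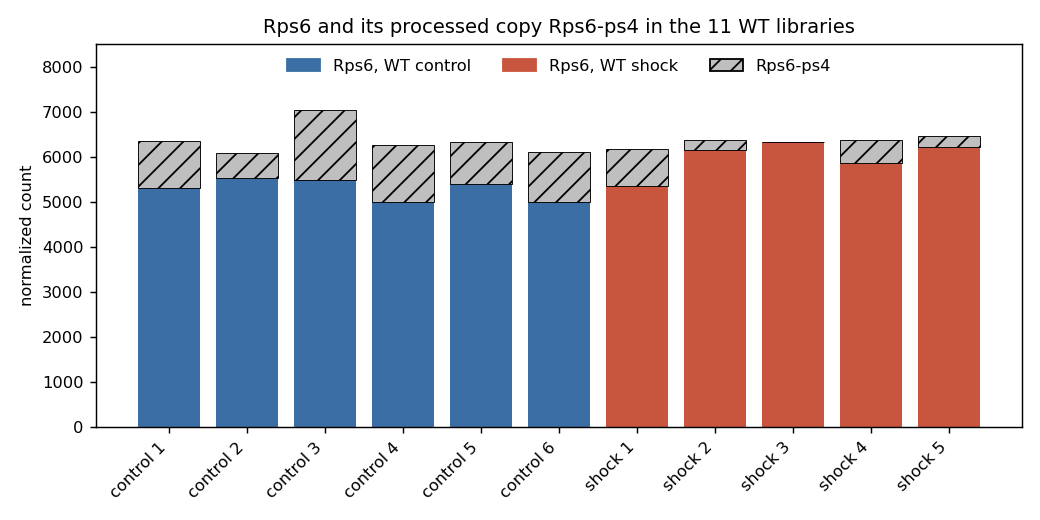
Normalized counts of Rps6 (solid) and Rps6-ps4 (hatched) stacked for each of the 11 WT libraries. Rps6 is taller in most shock libraries and Rps6-ps4 shorter, and the sums of the 2 groups average 6363 and 6340.

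Of the other leading genes, Pcdhb7 shares 10.9% of its stretches of 31 bases with Pcdhb9, and Ramp2 shares 31.7% with the overlapping gene Vps25. The sum of Pcdhb7 and Pcdhb9 was 553 ± 29.3 (SD, n = 5) after shock and 520 ± 11.9 (SD, n = 6) in WT control, a log2 difference of 0.09 (exact two-sided permutation p = 0.0433). The sum of Ramp2 and Vps25 differed by 0.06 (exact two-sided permutation p = 0.327). Pcdhb7 and Ramp2 were picked for their small p in these same libraries, so neither permutation p is independent of that choice. Pcdhb9 itself averaged 306 after shock and 326 in WT control, and Vps25 averaged 1178 and 1193. Adding a partner of higher level shrinks a difference whether or not reads were misassigned, so these sums cannot decide how reads were assigned. The values of Pcdhb7 and Ramp2 stay uncertain where reads could be assigned to either partner. The other 17 leading genes shared under 10% of such stretches with any single gene of the table.

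Copies also bear on the values of the mitochondrial genome. Of 15 mitochondrially encoded genes 6 have a copy in the table with at least 10% shared sequence, and the 3 with the widest shock differences are among them. mt-Co3, a cytochrome oxidase subunit, was listed at 60662, 30479, 34468, 27480 and 38338 after shock against 34763 to 81896 in WT control, a difference of -0.81 ± 0.34. Its stretches of 31 bases occur to 99.9% in Gm28437, which was listed at 205142 ± 18619 (SD, n = 5) after shock and 172300 ± 16247 (SD, n = 6) in WT control. The sum of both differed by 0.02 (exact two-sided permutation p = 0.468). For mt-Atp6, an ATP synthase subunit, the difference was -0.45 ± 0.15, with means of 26212 after shock and 35351 in WT control. Its copy Gm10925 averaged 211108 ± 7381 (SD) after shock and 207995 ± 9382 (SD) in WT control. The sum differed by -0.04 (exact two-sided permutation p = 0.275). Adding a much larger copy shrinks any difference of the gene, so that sum cannot show how reads were assigned. For mt-Co2 the difference of 0.35 became 0.01. For mt-Atp8, with 7.47% shared, no sum was formed, because it had no copy at the 10% limit. Its difference was -0.16 ± 0.05, at 20215, 20647, 20662, 19810 and 20277 after shock, all below the controls at 21345 to 25268 (median 22089). How its reads were assigned was not tested.

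No immediate early gene passed the test after shock. Of 38 members 0 were called, 0 had an unadjusted p under 0.05, and 8 had a positive and 30 a negative difference, with a median of -0.08 against 0.00 over all genes. Fos stood at 939, 1202, 729, 745 and 412 after shock. The WT controls ranged more widely, from 409 through a median of 811 to 1954, and held both the highest and the lowest library. The log2 difference was -0.16 ± 0.38, an interval of 0.518 to 1.54-fold. Arc, the synaptic effector, stood at 5034, 5825, 4792, 3053 and 2248 against 2325 to 9024 (median 5112), a difference of -0.32 ± 0.41. Egr1, at 7873, 10333, 9383, 8455 and 6150 against 5601 to 11444 (median 7896), differed by 0.01 ± 0.17. Egr1 thus has the narrowest bound of the named early factors, 0.788 to 1.29-fold.

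The neuron-restricted factor Npas4 stood at 677, 1031, 653, 886 and 463 against 318 to 1329 (median 566), a difference of 0.17 ± 0.34. Nr4a1, an orphan nuclear receptor, differed by -0.34 ± 0.29 and Junb, a partner of Fos, by -0.17 ± 0.27. All 6 genes overlapped between the groups. Libraries of 1 group differed strongly from each other. The highest WT control library was 4.77 times the lowest for Fos, 5.29 times for Egr2, 3.88 times for Arc and 4.18 times for Npas4. Within WT shock the ratios were 2.92, 2.53, 2.59 and 2.23. The ratio was larger in WT control, the group with 1 more library, for 29 of the 38 genes.

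The early genes varied together from library to library. The list score, the mean over members of the log2 deviation from the WT mean, was 0.51 in WT control replicate 5, 0.28 in replicate 2 and -0.42 in replicate 3. In WT shock it lay between -0.33 and 0.15, inside the control range. WT control replicate 5 was the highest of the 11 libraries for 26 of 38 members, and WT control replicate 3 the lowest for 16. Without WT control replicate 5 the list median was 0.00 with 20 of 38 members positive, and the Fos difference was 0.08. Without WT shock replicate 5, the lowest library for 11 members, the median was -0.01 with 17 positive, and the Fos difference was 0.06. In HT the median of the same list was 0.15. The interaction reached an unadjusted p under 0.05 for 3 of 38 members, beside 6.43% of all genes, and called 0.

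**Figure D3:**
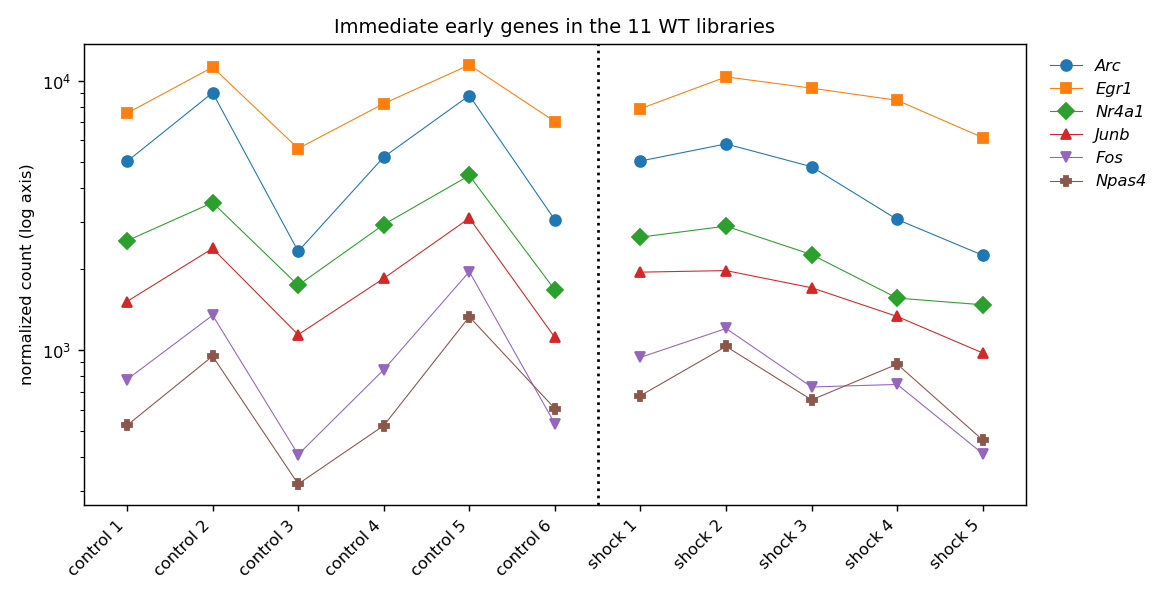
Normalized counts (log axis) of Arc, Egr1, Nr4a1, Junb, Fos and Npas4 in each WT library, with lines joining the libraries of a group only to guide the eye. Each of the 6 genes is highest in control 2 or 5, and the shock libraries lie inside the control range for Fos, Egr1 and Npas4.

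The delayed wave of activity genes had a median of -0.03. Of its 30 members 1 was higher and 1 lower at an unadjusted p under 0.05 (6.67%), beside 3.72% of all genes, and 0 were called. They were Crem, a cAMP-responsive repressor (0.16 ± 0.07), and Gpr3, a constitutively active receptor (-0.32 ± 0.14). For 28 of the 30 the interval lay inside 1.5-fold.

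Glucocorticoid-induced genes had a small positive median. Of 34 members 25 were positive, 0 were called, and the median was 0.09. At an unadjusted p under 0.05, 3 (8.82%) were higher and 0 lower, beside 2.04% and 1.68% of all genes. Tsc22d3, the glucocorticoid-induced leucine zipper, stood at 2921, 2844, 3942, 3286 and 3277 after shock and at 2653 to 3486 (median 2821) in WT control, a difference of 0.16 ± 0.08. Fkbp5, a chaperone that restrains the glucocorticoid receptor, stood at 1344, 1129, 1688, 1253 and 1309 against 1094 to 1425 (median 1154), a difference of 0.14 ± 0.09. Sgk1, a kinase, differed by 0.00 ± 0.27 on a range of 2263 to 5541 within WT shock alone, and Per1, a clock gene with a glucocorticoid-responsive promoter, by -0.12 ± 0.14. WT shock replicate 3 was the highest of the 5 shock libraries for Tsc22d3, Fkbp5 and Sgk1, and WT control replicate 6 the highest control for all 3. The score of the list was 0.53 and 0.32 in those libraries, and between -0.27 and 0.11 in the other 9. Without WT shock replicate 3 the list median was 0.02 with 19 of 34 positive. Without both libraries it was 0.06 with 25 positive. The number at an unadjusted p under 0.05 ranged from 0 to 7 when 1 WT library was left out. It was 0 without WT control replicate 1, 2, 4 or 5 or WT shock replicate 3, 6 without WT control replicate 6 and 7 without WT shock replicate 2. Leaving out WT shock replicate 5 gave 1.

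The receptors and peptides of the stress axis came next. Of 19 tested genes of the corticosteroid receptor and CRH list 1 (5.26%) had an unadjusted p under 0.05, beside 3.72% of all genes. It was Oxt, the oxytocin precursor, at 238, 192, 190, 201 and 187 after shock against 125 to 199 (median 166), a difference of 0.29 ± 0.12 with overlapping groups. Nr3c2, the mineralocorticoid receptor, differed by -0.10 ± 0.05. Of 30 monoamine and cholinergic genes 17 were positive with a median of 0.02. At an unadjusted p under 0.05 there were 2 (6.67%), beside 3.72% of all genes, and 0 were called. They were Slc6a4, the serotonin transporter (0.28 ± 0.13), and Th, tyrosine hydroxylase (0.20 ± 0.10). Slc6a4 was at 0.20 without WT shock replicate 5, and Th at 0.11 without WT control replicate 6.

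WT control replicate 6 and WT shock replicate 3, of opposite treatment, shared extreme values of some genes. In 23 of 15787 genes (0.146%) with a WT mean of at least 20, both were at least 1.5 times the highest of the other 9 WT libraries, and in 4 both were as far below the lowest. This rule was set after seeing the values, and no test was made. The 23 genes included 4 of 25 acute-phase and glial reaction genes, 3 of 30 heat shock and ER chaperones, 2 of 34 glucocorticoid-induced genes, 2 of 13 blood cell genes and the ribosomal protein gene Rps27. Lcn2 is in 2 of these lists, and 12 genes, such as Adamtsl3 and the predicted gene Gm12840, are in none. Lcn2, a secreted iron-binding protein of the acute phase, stood at 821 and 1115 in them and at 1.17 to 146 in the other 9. Lyz2, lysozyme of myeloid cells, stood at 376 and 484 against 91.9 to 148, and the neutrophil gene S100a9 at 106 and 339 against 9.83 to 51.1. Osmr, a receptor subunit for oncostatin M, stood at 217 and 247 against 63.0 to 130, and Icam1, an adhesion molecule for leukocytes, at 259 and 230 against 25.1 to 144. The shock difference was 1.09 ± 0.61 for S100a9 and -0.45 ± 0.53 for Icam1.

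The 3 chaperone genes among them were Hspa1b, Hspb1 and Sdf2l1. Hspa1b, an inducible member of the HSP70 family, stood at 1949 and 2148 in WT control replicate 6 and WT shock replicate 3 against 327 to 1061 in the other 9, and Hspb1, a small heat shock protein, at 591 and 614 against 163 to 299. The shock differences were -0.07 ± 0.46 for Hspa1b and 0.16 ± 0.29 for Hspb1. The 250 bases before their start sites are shown because both genes peaked in the same libraries and both windows hold the core of the heat shock element, GAANNTTC, which is in capitals.
Hspa1b, chr17:34959239-34959488, minus strand: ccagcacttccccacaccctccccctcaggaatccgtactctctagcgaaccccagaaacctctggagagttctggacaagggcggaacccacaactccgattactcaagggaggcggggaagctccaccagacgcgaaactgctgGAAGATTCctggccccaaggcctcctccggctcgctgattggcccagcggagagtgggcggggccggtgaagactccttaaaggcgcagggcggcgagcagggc
Hspb1, chr5:135887669-135887918, plus strand: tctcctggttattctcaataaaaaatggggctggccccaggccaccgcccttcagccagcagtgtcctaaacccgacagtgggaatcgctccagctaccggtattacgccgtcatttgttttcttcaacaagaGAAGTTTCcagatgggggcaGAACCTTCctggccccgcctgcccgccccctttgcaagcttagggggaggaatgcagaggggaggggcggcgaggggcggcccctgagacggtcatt
The sequences are from RefSeq on GRCm38.p6 and run 5′ to 3′ on the strand of the gene. The motif reads the same on both strands and begins 104 bases before the Hspa1b start and 117 and 97 bases before the Hspb1 start. It occurs in 6.69% of 32851 such windows. The window of Hspa1a also holds the motif, 104 bases before the start, and that of Sdf2l1 was not examined. The same letters were not found in this window of Lcn2 or Osmr. A match describes the letters only.

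**Figure D4:**
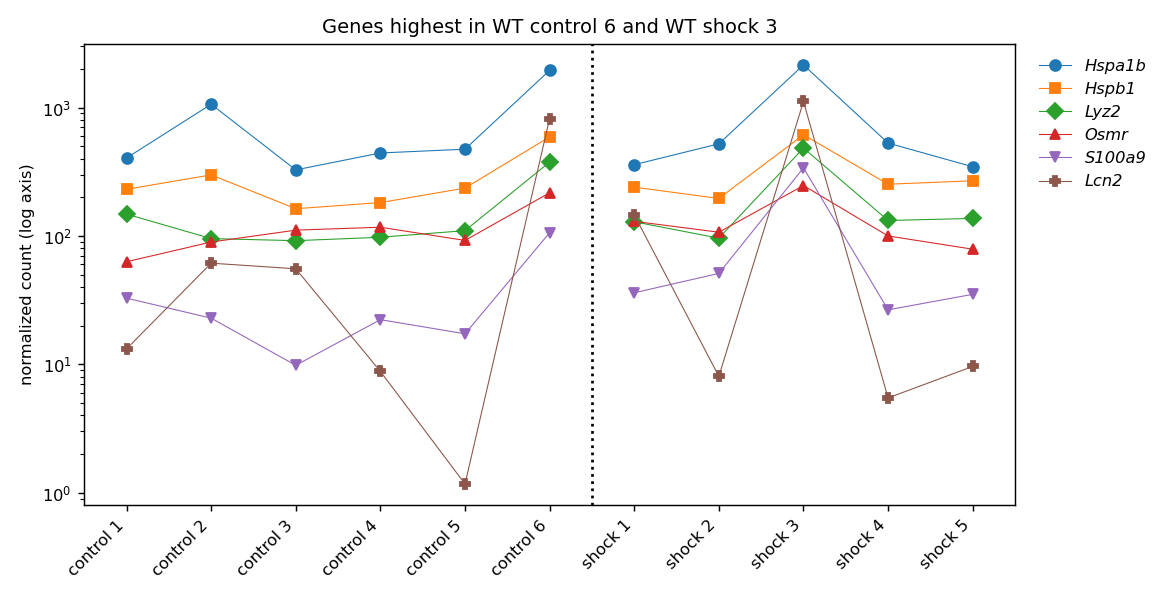
Normalized counts (log axis) of Hspa1b, Hspb1, Lyz2, Osmr, S100a9 and Lcn2 in each WT library. Control 6 and shock 3 are the 2 highest libraries for all 6 genes, with Lcn2 at 821 and 1115 against at most 146 in the other 9 WT libraries.

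Vessel genes were the cell type list with the largest share of members at a small p. Of 25 endothelial genes 24 were positive and 9 (36%) were higher at an unadjusted p under 0.05, beside 49.8% and 2.04% of all genes. By limma 0 were called, and the median was 0.16. Ly6c1, a surface antigen of brain endothelium, stood at 810, 611, 914, 777 and 663 against 541 to 784 (median 611), a difference of 0.27 ± 0.10. Mfsd2a, the lipid transporter of the blood-brain barrier, stood at 591, 631, 957, 718 and 701 against 486 to 659 (median 606), a difference of 0.29 ± 0.11. Slc2a1, the glucose transporter of the barrier, differed by 0.16 ± 0.08, and Sox17, an arterial transcription factor, by 0.35 ± 0.14. These 4 genes overlapped between the groups. List scores lay between -0.01 and 0.22 in WT shock and between -0.17 and 0.07 in WT control. Members of a list share libraries and cells and are not independent.

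WT shock replicate 4 was the highest of the 11 libraries for 14 of the 25 endothelial genes, and WT control replicate 3 the lowest for 9. The lowest list score, -0.17, was also that of WT control replicate 3. Without WT shock replicate 4, 6 were higher and 1 lower at an unadjusted p under 0.05 with a median of 0.13, and without WT shock replicate 3 the count was 5 with a median of 0.18. Without WT control replicate 6 and WT shock replicate 3 together it was 10 with a median of 0.20. In bulk tissue more cells of a type and more RNA per cell cannot be told apart. The interaction had an unadjusted p under 0.05 for 10 of the 25, beside 6.43% of all genes, and called 0. The list stands out for its WT difference, which enters the interaction, so that count is not independent of it. In HT the median was -0.04.

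Other non-neuronal lists leaned the same way. Mural cell and fibroblast genes had 24 of 25 positive with a median of 0.14, choroid plexus and ependymal genes 19 of 21 with 0.18, and blood cell genes 11 of 13 with 0.35. At an unadjusted p under 0.05 they had 2 (8%), 4 (19%) and 0 (0%) members higher, beside 2.04% of all genes, and 0 were called. WT control replicate 3 was the lowest library for 14 of the 25 mural and 9 of the 21 choroid genes. It also had the lowest score of the mural (-0.27) and choroid (-0.42) lists. Without WT shock replicate 2 the choroid median was 0.31 with 7 such members, and the mural count was 6. Over all single omissions the choroid count ranged from 3 to 8 (8 without WT control replicate 4) and the mural count from 1 to 6 (5 without WT control replicate 5, 1 without WT control replicate 2 or 4 or WT shock replicate 4). Igf2, a growth factor of meninges and choroid plexus, stood at 1977, 1675, 1793, 2378 and 2014 against 1231 to 1863 (median 1639). Ccdc153, a gene of ciliated ependyma, stood at 86.6, 68.5, 80.2, 84.3 and 66.8 against 43.3 to 65.6 (median 62.2), with no overlap and a difference of 0.40 ± 0.13. The blood score was 1.1 in WT shock replicate 3 and between -0.43 and 0.23 in the other 10 libraries, and without that library the blood median was 0.22. The part of dissection or residual blood in the vessel and choroid values was not tested.

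Glial lists differed by less. Astrocyte genes had a median of 0.05 with 20 of 25 positive, beside 49.8% of all genes. At an unadjusted p under 0.05, 6 (24%) were higher, beside 2.04% of all genes. They were led by Ndrg2 and Ntsr2, a neurotensin receptor (0.13 ± 0.04), and included the filament gene Gfap (0.13 ± 0.05). All 25 intervals lay inside 1.5-fold. Without WT shock replicate 4 the count was 3, and without WT shock replicate 5 it was 2. Mature oligodendrocyte genes had a median of 0.09, oligodendrocyte precursor genes 0.08 and microglia and macrophage genes 0.09, and 0 were called. Without WT shock replicate 4 the oligodendrocyte median was 0.04 and the precursor median 0.05. The microglia median was 0.01 without WT shock replicate 5, the highest library for 15 of 26 members, and 0.24 without WT shock replicate 2, the lowest for 14. The myelin gene Mobp differed by 0.15 ± 0.06. Microglia scores reached from -0.45 to 0.40 within WT shock and from -0.34 to 0.22 within WT control.

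**Figure D5:**
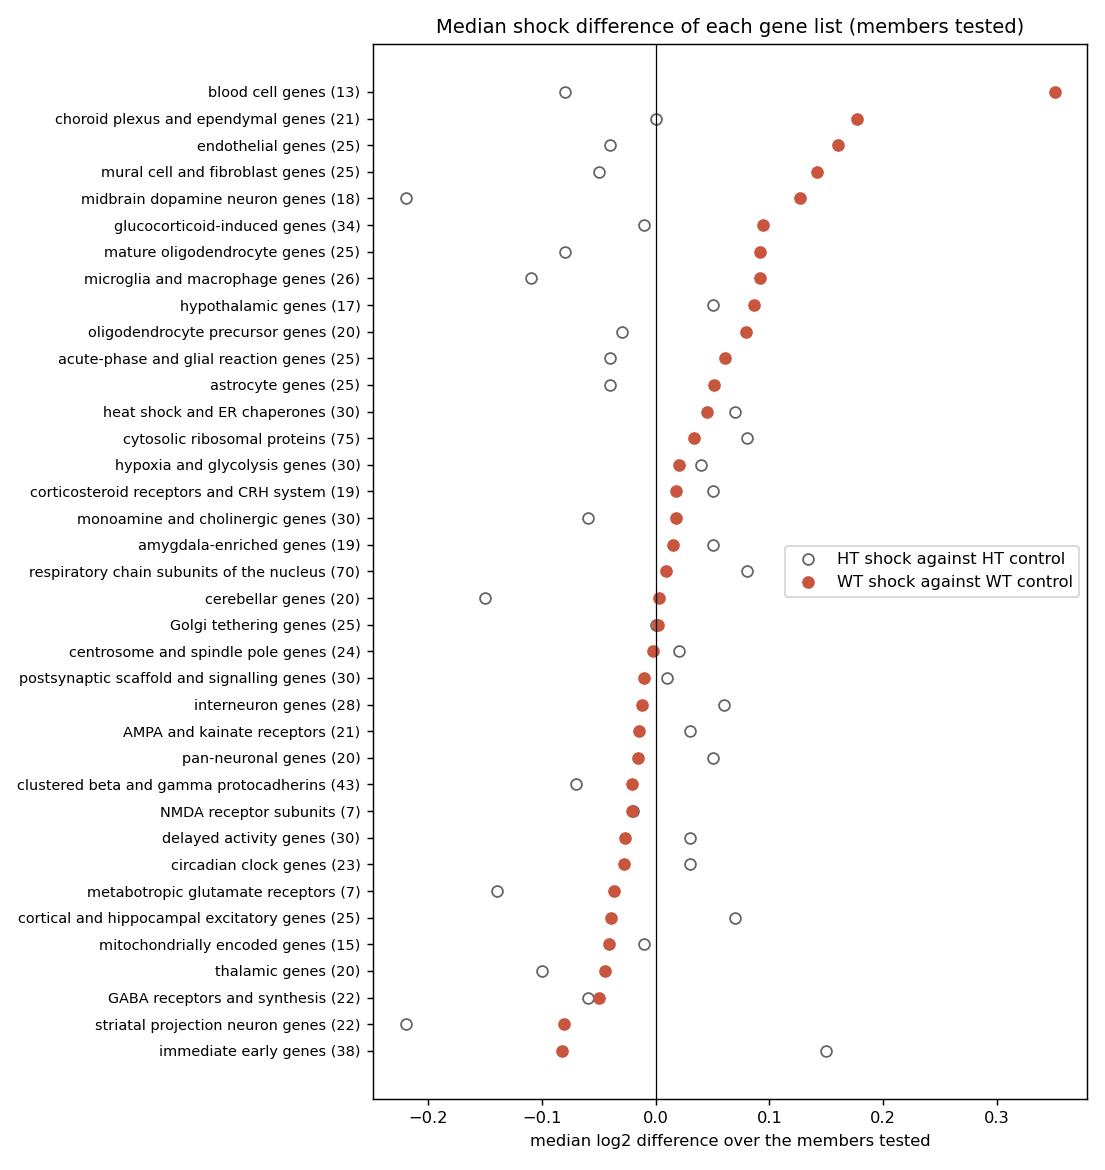
Median log2 difference of each gene list with at least 5 members tested, in WT shock against WT control (filled) and HT shock against HT control (open), with the number of members tested in parentheses. WT medians run from -0.08 for immediate early genes to 0.35 for blood cell genes, and no member of any list was called in WT.

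Synaptic and neuronal genes were held to narrow bounds, as were most genes above a low level. An interval inside 1.5-fold was found for 98.5% of all genes with a mean of 200 to 1000 and 99.7% at 1000 or more. The interval lay inside 1.5-fold for all 30 postsynaptic scaffold and signalling genes, all 21 AMPA and kainate receptor genes, all 22 GABA genes, all 7 metabotropic glutamate receptor genes and all 20 pan-neuronal genes. Their medians lay between -0.05 and -0.01. Grin2b, the gene of the NMDA receptor subunit GluN2B, which carries the C456Y allele only in HT, stood at 13111, 13831, 14218, 12272 and 10734 after shock. The WT controls lay between 12521 and 15225 (median 13514), and the difference was -0.09 ± 0.08 (0.835 to 1.06-fold). The obligatory subunit Grin1 differed by 0.04 ± 0.04 and Grin2a by -0.07 ± 0.06. Of the NMDA receptor genes only the low Grin3b, at 14.6 to 46.4 over the WT libraries, had an interval that reached beyond 1.5-fold.

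Among region lists, striatal projection neuron genes had 19 of 22 negative with a median of -0.08, and Rarb, a retinoic acid receptor of striatum, did not overlap, at 568, 481, 532, 582 and 511 against 589 to 732 (median 650). In HT the median of that list was -0.22. Midbrain dopamine neuron genes had 15 of 18 positive with a median of 0.13 and stood at -0.22 in HT. Without WT shock replicate 5, the highest library for 9 of the 18, the median was 0.06. Amygdala-enriched genes had a median of 0.02 with all 19 intervals inside 1.5-fold. Cortical and hippocampal excitatory genes (-0.04), thalamic genes (-0.04) and cerebellar genes (0.00) also had small medians, and 0 members of any region list were called. Differences in dissection between libraries were not tested.

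Circadian clock genes, a readout of time of day, had a median of -0.03, and all 23 intervals lay inside 1.5-fold. Csnk1d, a clock kinase, differed by 0.06 ± 0.03 and Bhlhe41, a clock repressor, by -0.11 ± 0.05. Nuclear respiratory chain genes had a median of 0.01 with all 70 intervals inside 1.5-fold, and cytosolic ribosomal protein genes 0.03 with 73 of 75.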

How the data were processed

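Stranded mRNA libraries of brain were made with a TruSeq kit, per the labels' protocols. The authors deposited 1 table with a signal value for each of 18578 genes in each library, in normalized counts that carry decimals, and 18563 IDs matched a symbol. Salmon 1.1.0, DESeq2 1.26.0 and R 3.6.2, with the build GRCm38, appear in the submitters' processing notes without roles. Whole reads were not recovered, since at best 35.5% to 78.5% of a library's low values lay within 0.1 of a whole multiple, so depth is unknown. Of 24 columns 1 matched no sample and was not used.

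Values were taken as log2(normalized count + 1) from the deposited table, a scale that understates changes of low genes. All 4 groups entered 1 limma fit (limma 3.58.1, R 4.3.3, trend and robust moderation), with Benjamini-Hochberg adjustment over 17118 genes and intervals at 95%. The fit was tested on simulated data, with values drawn independently for each gene and library. At an adjusted p under 0.05 it recovered 38% of WT shock changes of 0.25 on the log2 scale, 61.3% at 0.5 and 90.7% at 1. In the real libraries genes varied together, as the early genes did, so these shares may not hold there. Alternatives changed the filter, pseudocount, centring, moderation, weights and libraries. Single sums were compared by an exact two-sided permutation test.

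The comparison, the 38 gene lists and the rule for named genes were chosen with earlier results of these data known. The rule took Grin2b, the 10 smallest p in each direction at a mean of 20 or more without a predicted or clone name, 6 early and 4 glucocorticoid genes, 2 members of each list and the 10 genes with the largest spread within groups. Not every gene so named is described. Copies were found as shared stretches of 31 bases in GENCODE M21 transcripts. Correlations of same-numbered WT residuals lay between -0.154 and 0.029 under title or bracketed numbering. With so few pairs they cannot decide whether the libraries were paired. In WT shock against WT control 637 genes had an unadjusted p under 0.05 by limma without a block. There were 844 with title numbers as block and 634 with bracketed numbers. One named gene is not reported here.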

Additional observations from a re-analysis of the deposited data

Results flagged for a closer look

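In 274 groups of 5 or 6 WT libraries (single named genes and list scores) 18 (6.57%) held a library far from the others, where chance gives about 1 in 20. The named genes include 10 chosen for their spread within groups, which hold 8 of the 18, and without those 10 genes 10 of 254 groups (3.94%) remain. Of all 18, 5 fell on WT control replicate 6. They were Tsc22d3 at 3486 normalized counts (others 2653 to 2905), Creld2, an ER chaperone, at 600 (313 to 418), Mgp at 754 (591 to 641), Lcn2 at 821 (1.17 to 61.4) and Pomc at 22.0, below the others at 39.4 to 47.6. WT shock replicate 3 stood out for Lcn2, at 1115 against 5.48 to 146, and for Obsl1, at 516 against 638 to 676.

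WT shock replicate 4 was apart for Fam129b (1190 against 1082 to 1107), Tac1 (775 against 919 to 954), Fam205a4 (429, others 0) and Gm2446 (0 against 138 to 152). WT shock replicate 1 was apart for Oxt (238 against 187 to 201), Gm17081 (1087 against 468 to 546) and Gm5859 (769 against 346 to 457). In WT control, replicate 2 was apart for Fam205a4 (631 against 0 to 195) and replicate 5 for Gm2446 (0 against 119 to 147). The score of AMPA and kainate receptors was -0.05 in WT shock replicate 5 (others 0.00 to 0.01), and that of GABA receptors and synthesis was -0.05 in WT control replicate 1 (others 0.01 to 0.05).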

How the results depend on the processing

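The count of genes called in WT shock against WT control was 0 under every alternative run. The number with an interval inside 1.5-fold lay between 13913 and 15076. The number of genes without overlap lay between 98 and 158 when 1 WT library was left out, since fewer libraries separate more easily. No call changed under the replicate block: 0 genes were called with title numbers as block and with bracketed numbers, with 14238 and 14263 intervals inside 1.5-fold. The interaction called 2 genes with library weights and between 0 and 1 without 1 library, the 1 being without HT control replicate 6. HT shock against HT control, 0 in the fit reported, called 1 gene with HT groups only, 2792 with library weights, 4 at an adjusted p under 0.1 and between 0 and 2065 without 1 library (2065 without HT control replicate 6). The cause was not tested.

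Of 100 named genes 88 showed no change of sign in the alternatives of the fit, a count that includes Junb, which reached 0.00, and Sgk1, which is at 0.00 in the fit reported and took either sign. None of the 100 was called in any. Leaving out 1 library moved Fos between -0.37 and 0.08, Egr1 between -0.10 and 0.12, Npas4 between -0.03 and 0.38, Junb between -0.29 and 0.00, Sgk1 between -0.16 and 0.16 and Lcn2 between -0.83 and 1.32. It moved the multi-copy or predicted genes Gm10222 between -2.59 and 0.71, Fam205a4 between -2.82 and 0.23, Fam205a2 between -1.38 and 0.82, Fam205a3 between -1.79 and 1.40, Gm45837 between -1.58 and 1.06, Gm2446 between -1.35 and 1.27, Gm17081 between -0.56 and 1.46 and Gm5859 between -0.57 and 1.36. Without WT control replicate 6 and WT shock replicate 3 together, Egr1 was -0.08, Gm10222 2.01, Fam205a4 0.33 and Gm45837 1.42. Library weights gave -0.03 for Egr1, 0.37 for Gm10222, 0.10 for Gm45837 and 0.07 for Gm2446. The replicate block gave -0.01 for Egr1, 0.06 for Sgk1 and 0.05 for Gm2446. Median centring gave 0.00 for Sgk1, and the sum with its copy gave 0.00 for Rps6. Of 38 list medians 26 kept their sign. Depth is unknown, so counting error could not be separated from the spread between libraries.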

Other observations

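Families of some leading genes did not share their position. Of 43 clustered beta and gamma protocadherin genes, 2 were higher (Pcdhb7 and Pcdhb22, 0.20 ± 0.08) and 1 lower (Pcdhb6, -0.39 ± 0.16) at an unadjusted p under 0.05 by limma. That share was 6.98%, beside 3.72% of all genes, 0 were called, and the median was -0.02. Of 24 centrosome and spindle pole genes only Pcnt (4.17%), and of 25 Golgi tethering genes only Gcc1 (4%), had an unadjusted p under 0.05. Both shares were near the 3.72% of all genes, and both lists had a median of 0.00. Hypothalamic genes had 10 of 17 positive with a median of 0.09. At an unadjusted p under 0.05, 2 (11.8%) were higher, beside 2.04% of all genes. They were Oxt and Hdc, the histidine decarboxylase of histamine neurons. Hdc stood at 92.9, 71.3, 113, 85.5 and 89.7 after shock against 53.6 to 83.5 (median 69.2) in WT control.

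The long non-coding RNA Gm48488, picked after its values were seen, stood at 41.7, 14.9, 43.6, 14.6 and 58.3 after shock. WT control lay between 7.88 and 14.6, so 3 shock libraries were far above the controls and the other two beside the highest control. The log2 difference was 1.37 ± 0.31 with an adjusted p of 0.998 by limma.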
